A study of Mus musculus with 12 samples.

Results

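The regions described here are the 290 sites at which the ZFAT library of C57BL/6 (B6) mouse thymocytes gave a peak both against an input control and against an IgG control. They were selected on the B6 peak calls themselves: a peak of the input-called list was kept if any base of it, 1 bp or more, was also covered by the IgG-called list. This selected 290 of 2000 input-called peaks (14.5%), and each met a different peak of the IgG-called list, so that 290 of its 427 peaks (67.9%) were used. The other 1710 input-called peaks, called input-only below, had no IgG-called partner, and 137 IgG-called peaks had no input-called partner. Over the whole series the 7 peak lists hold 21883 peaks, with all positions in mm9.

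ZFAT is a nuclear protein with zinc fingers and an AT-hook that binds DNA and is required for T cell development in mice. Input DNA, chromatin that was not precipitated, shows how readily a region is recovered and sequenced. Precipitation with a non-specific IgG also passes through the antibody and bead steps. A peak called against each has thus been set against a pair of controls. Where both local backgrounds are at the lowest value of their lists, the controls do not set it against different levels. Acetylation of histone H3 at lysines 9 and 27 (H3K9ac/K27ac) is found at active promoters and enhancers, and trimethylation of lysine 9 (H3K9me3) marks silenced chromatin and repeats.

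Thymocytes, which are immature T cells developing in the thymus, came from mice aged 4 to 5 weeks. Per the labels, all samples were fixed in 1% formaldehyde for 10 min and digested with 375 units of micrococcal nuclease (MNase) for 0.5 h. Zfatf/f-LckCre mice (Lck-Cre below) carry floxed Zfat alleles together with Cre expressed from Lck, a T lineage gene, and Zfatf/f mice (floxed below) carry the floxed alleles without Cre. ZFAT was profiled in Lck-Cre, floxed and B6 thymocytes, H3K9ac/K27ac in Lck-Cre and floxed thymocytes, and H3K9me3 in floxed thymocytes, with 1 library for each, so every difference is between libraries and has no replicate check. The B6 library of both lists is 1 ChIP library, and a peak in both lists is therefore not a replicated peak. How much of the Zfat sequence Cre had removed was not measured in these lists, and the identity of the cells could not be set against marker genes, since the peaks carry no gene names and no mm9 annotation was used. The lists do not state read depth. The depth that the weakest background of each list implies was about 1350000 fragments for Lck-Cre ZFAT, 1508000 for floxed ZFAT and 632000 for B6 ZFAT, and 1343000 for Lck-Cre H3K9ac/K27ac, 2191000 for floxed H3K9ac/K27ac and 2234000 for floxed H3K9me3.

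Most of the doubly called regions rested on few fragments. Their authors' fold over local background had a median of 5.16 against input and 4.76 against IgG, and their P score (the −log10 p of the caller) had a median of 8.57 in each list. The pileup, the number of fragments over the summit inferred from fold and P score, had a median of 5, with quartiles of 3.25 and 17, and the median length was 173 bp. Input-only peaks had a median fold of 5.62, a median P score of 8.58, a median pileup of 6 and a median length of 171 bp. A pileup of 3 to 5 fragments was found at 158 of the 290 doubly called regions and at 792 of the 1710 input-only peaks. These B6 values chose the regions and serve only to describe them.

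The ranges at the strong end differed more. The highest fold was 563 among doubly called regions and 17.8 among input-only peaks. Doubly called were all 18 input-called peaks with the highest P score the caller gives (323, the ceiling), 38 of 46 with a score of 50 or more and 70 of 99 with a score of 20 or more. Below a score of 10, 154 regions were doubly called and 1010 were input-only. The 290 regions thus joined 70 strong sites, with scores of 20 or more, and 220 weaker ones.

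The folds in both lists were similar at most of the 290 regions. The fold was higher against input at 111, equal to within a relative 1e-06 at 112 and lower against input at 67, and the ratio of the input fold to the IgG fold had quartiles of 1 and 1.10, with a range of 0.397 to 3.11. In 112 of the 272 regions below the P ceiling the local background was at the lowest value of its list, to within 0.0001 scaled fragments, in both lists. That value was 0.0507 in each list, so with the same pileup the folds there are equal by construction. The pileup, which comes from 1 ChIP library in both lists, was the same at 271 of these 272 regions. The summit fell on the same base at 179 of the 290.

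**Figure D1:**
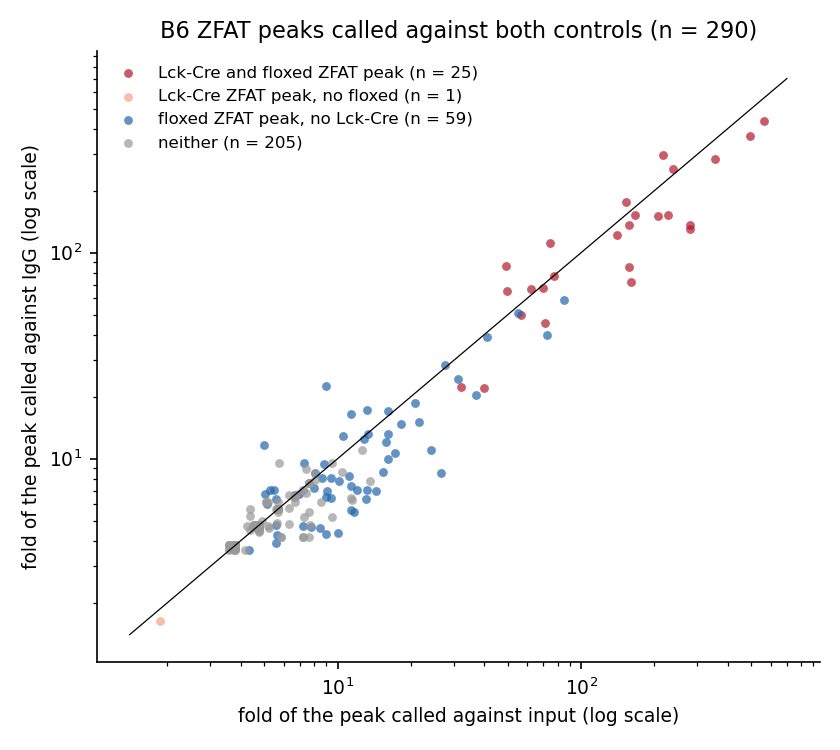
Fold of each of the 290 regions in the B6 ZFAT list called against input (x, log scale) and in the list called against IgG (y, log scale), coloured by the ZFAT lists of the other genotypes that also hold a peak there; the line marks equal folds. Regions with an Lck-Cre and a floxed ZFAT peak lie above an input fold of 32, and regions with neither lie below 14.

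At the edge of the definition, the smallest shared stretch was 139 bp, at chrX:100958590-100958776, and the next smallest was 152 bp. The nearest input-called peak left out, chr12:75009450-75009792, lay 196 bp from an IgG-called peak, with a fold of 5.02 and a P score of 7.24. The weakest doubly called regions had an input P score of 5.20 and a pileup of 3. The strongest input-only peaks were chr17:39980627-39981851 (P score 150, fold 3.73, control background 154 scaled fragments) and chr17:39982015-39983300 (P score 130, fold 3.67, background 139). The strongest IgG-only peak, chr2:98502735-98502923, had a P score of 72.9, a fold of 2.51 and a background of 203. A background of 20 or more against input was reached at 1 of the 272 doubly called regions where it is known and at 9 of the 1710 input-only peaks. It is unknown at the 18 regions at the P ceiling.

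The strongest region, chr7:134920349-134921451, had a P score at the ceiling in all 4 ZFAT lists. Its fold was 79.2 in Lck-Cre and 311 in floxed thymocytes, and 563 against input and 436 against IgG in B6 thymocytes. The next, chr9:99468648-99469455, had ZFAT folds of 37.2 in Lck-Cre, 278 in floxed and 494 in B6 thymocytes against input. In floxed thymocytes both were acetylated, with H3K9ac/K27ac folds of 12.1 on chromosome 7 and 15.6 on chromosome 9 and summits 7 bp and 9 bp from the B6 ZFAT summit. Neither had an Lck-Cre H3K9ac/K27ac peak.

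At chr12:114238095-114238985 the ZFAT fold was 27.8 in Lck-Cre, 179 in floxed and 356 in B6 thymocytes, and at chr11:99091362-99092238 it was 24.5 in Lck-Cre, 208 in floxed and 280 in B6 thymocytes. These regions were the strongest with acetylation in both genotypes. Their H3K9ac/K27ac folds were 6.87 in Lck-Cre and 13.5 in floxed thymocytes on chromosome 12, and 5.78 in Lck-Cre and 17.8 in floxed thymocytes on chromosome 11. The ZFAT and acetylation summits lay farther apart there than at the strongest pair of regions, by 210 bp and 172 bp in floxed thymocytes.

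The remaining regions among the 10 strongest were chr10:88194016-88194597, chr2:153458200-153458644, chr2:153474963-153475688, chr7:20147043-20147901, chr5:124933155-124933601 and chr19:56622315-56622608. Their ZFAT folds ranged from 6.33 to 26.6 in Lck-Cre thymocytes, from 86.8 to 312 in floxed thymocytes and from 167 to 239 against input in B6 thymocytes, except for 279 at the chromosome 10 region. Of these 6, the first 5 were acetylated in floxed thymocytes, at folds of 5.02 to 13.4, and none had an Lck-Cre H3K9ac/K27ac peak. The chromosome 19 region lay 391 bp from the nearest floxed acetylation peak.

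A floxed ZFAT peak was present at 84 of the 290 doubly called regions (29.0%, exact Clopper-Pearson 95% interval 23.8% to 34.6%) and at 62 of 1710 input-only peaks (3.63%, 2.79% to 4.62%), with 7.30% of all input-called peaks as the background. All intervals of this kind cover counting error only. The share followed the B6 score. It was 37 of 38 at P scores of 50 or more, 27 of 32 from 20 to 50 (84.4%, 67.2% to 94.7%), 15 of 66 from 10 to 20 (22.7%, 13.3% to 34.7%) and 5 of 154 below 10 (3.25%, 1.06% to 7.41%). Among input-only peaks it was 8 of 8, 3 of 21 (14.3%, 3.05% to 36.3%), 29 of 671 (4.32%, 2.91% to 6.15%) and 22 of 1010 (2.18%, 1.37% to 3.28%) in the same ranges. The intervals of doubly called and input-only peaks did not overlap from 10 to 50, and overlapped below 10 and from 50 upward. The 8 input-only peaks from 50 upward all carried H3K9me3 and no H3K9ac/K27ac peak.

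**Figure D2:**
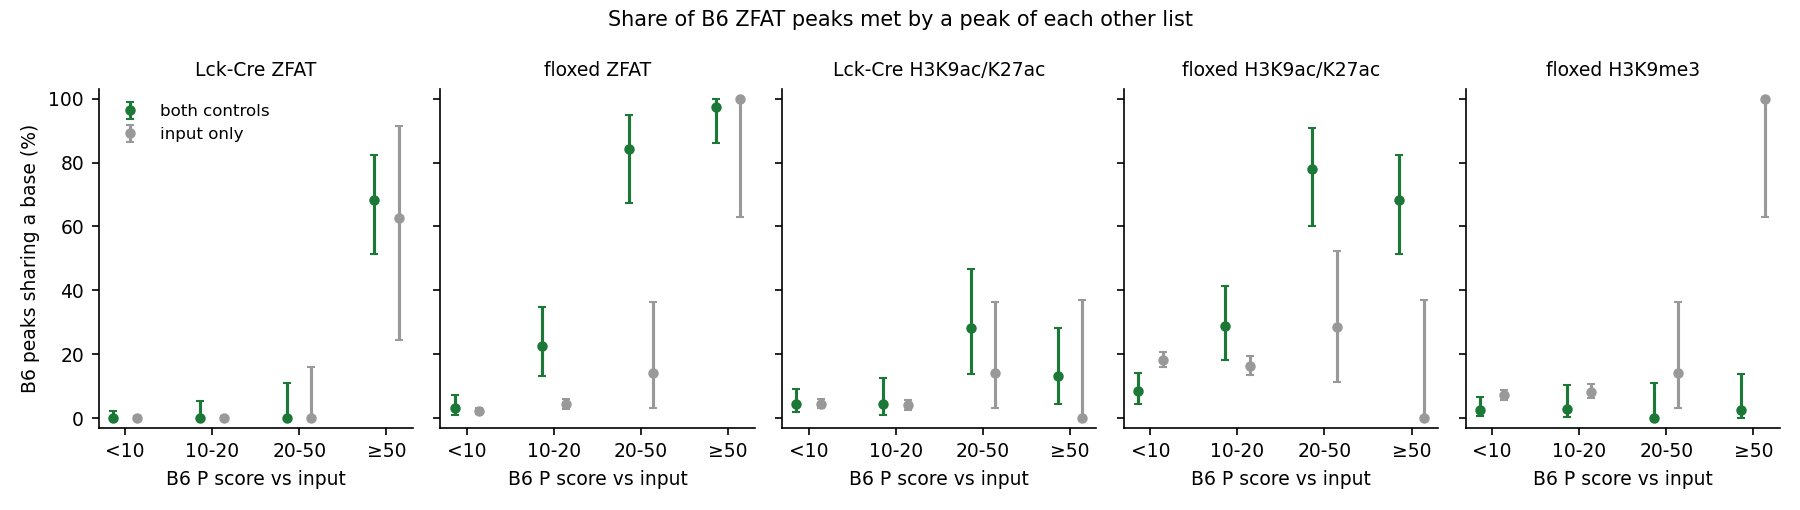
Percentage of doubly called B6 ZFAT regions (green) and of input-only B6 ZFAT peaks (grey) that share a base with a peak of each other list (y, one panel per list), by range of the B6 P score against input (x); bars are exact 95% intervals for counting error. For floxed ZFAT the doubly called regions reach 84.4% from 20 to 50, where input-only peaks reach 14.3%.

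Seen from the floxed list, the doubly called regions held its strongest peaks. They met all 23 of the floxed ZFAT peaks whose score had reached its ceiling, 41 of the 51 with a score of 50 or more, 26 of 63 from 20 to 50, 11 of 567 from 10 to 20 and 4 of 1038 below 10. In all, the 84 regions met 82 floxed peaks, because 2 floxed peaks each covered a pair of regions. The weaker region of each such pair therefore takes the fold and pileup of a floxed peak whose summit lies at its neighbour. The floxed peaks met had a median fold of 17.8 and a median pileup of 53.5, with ceiling values at their lower bound, and the whole floxed list had medians of 5.35 and 9. At the 62 input-only peaks with a floxed peak, the median floxed fold was 5.35.

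The floxed summits fell close to the B6 summits. The distance had a median of 10 bp and quartiles of 4 and 32.25 bp, and 56 of the 84 summits lay within 20 bp. At input-only peaks with a floxed peak the median distance was 28.5 bp.

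**Figure D3:**
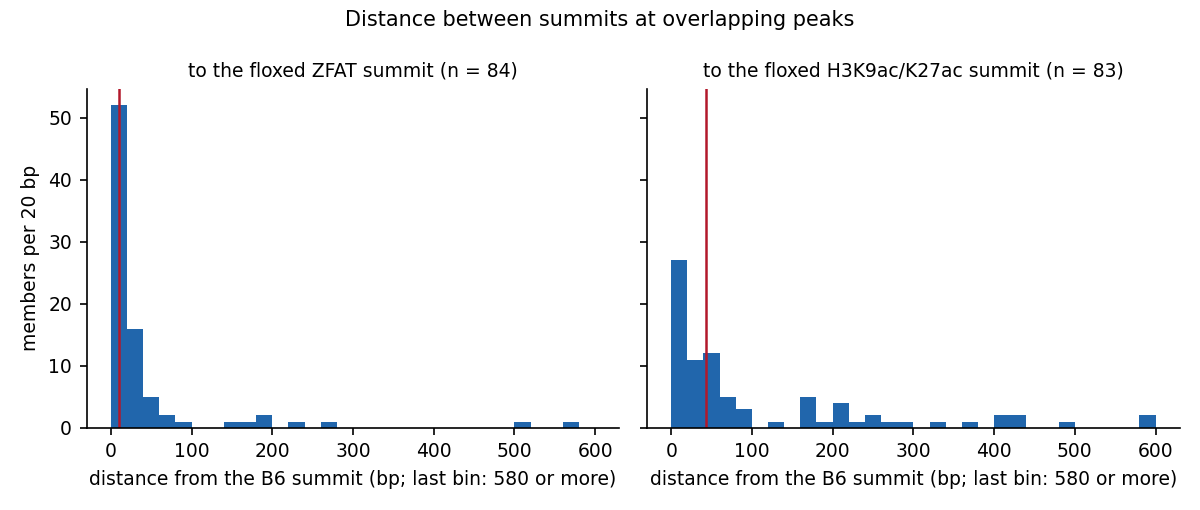
Distance from the B6 ZFAT summit to the summit of the overlapping floxed ZFAT peak (left, 84 regions) and floxed H3K9ac/K27ac peak (right, 83 regions), as numbers of regions in bins of 20 bp; red lines mark medians of 10 bp and 43 bp. ZFAT summits gather near 0, and acetylation summits spread farther.

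Of the 206 regions without a floxed ZFAT peak, 205 had an input fold of at most 13.6 and a pileup of at most 23 fragments, and the remaining one had a pileup of 2837. The strongest by P score was that remaining one, the chromosome 2 region of high control background described with H3K9me3. The 4 after it were chr5:28643768-28644149 with 21 fragments (exact Poisson 95% interval 13.0 to 32.1), chr3:159493458-159493657 with 11 (5.49 to 19.7), chr17:57713874-57714057 with 13 (6.92 to 22.2) and chr10:7400724-7400923 with 23 (14.6 to 34.5). The nearest floxed ZFAT peak lay 90313 bp away on chromosome 10 and 629642 bp or more at the other 3. The regions on chromosomes 5 and 10 were acetylated in floxed thymocytes, at folds of 16.4 and 22.7.

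Lck-Cre ZFAT peaks were fewer and sat at the top of the score range. They met 26 of the 290 doubly called regions (8.97%, 5.94% to 12.9%) and 6 of the 1710 input-only peaks (0.351%, 0.129% to 0.762%), with a background of 1.60% of input-called peaks. All 26 had a B6 P score of 50 or more, where 26 of 38 regions were met (68.4%, 51.3% to 82.5%) and 5 of 8 input-only peaks. Below 50 an Lck-Cre peak was found at 0 of 252 regions (upper end of the exact interval 1.45%). The 26 Lck-Cre peaks made up 24.1% of the 108 in the Lck-Cre list and 12 of its 16 peaks with a score of 50 or more.

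Both an Lck-Cre and a floxed ZFAT peak were present at 25 of the doubly called regions, with a background of 1.50% of input-called peaks, and these 25 included all 18 regions at the B6 P ceiling. The Lck-Cre fold was lower than the floxed fold at 25 of 25, with medians of 10.9 in Lck-Cre and 154 in floxed thymocytes, and 158 in B6 thymocytes against input. The Lck-Cre folds ranged from 2.60 to 79.2 and the floxed folds from 33.9 to 355, so the ranges overlapped while every pair went the same way. A fold also depends on the local control background, which is unknown at 22 of these 25 floxed peaks because their P score is at the ceiling. At those 22 peaks the floxed pileup is a lower bound, set from the fold, the P ceiling and the lowest background of the list. The comparison of pileups does not need the unknown background there, but it is not independent of the fold. The depth-scaled pileup is the pileup divided by the library's inferred number of fragments and multiplied by 1000000. Where the Lck-Cre pileup was known, the depth-scaled Lck-Cre pileup was at most 0.355 times the floxed one at the median of 23 regions, with quartiles of 0.200 and 0.481 and a highest value of 0.994.

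Single regions showed the spread of that difference. The smallest Lck-Cre pileup among the 25, 13 fragments at chr2:57034187-57034394, stood beside 106 in floxed and 41 in B6 thymocytes. At chr16:57606590-57607122 the pileups were 23 (14.6 to 34.5) in Lck-Cre, 171 (146 to 199) in floxed and 121 (100.4 to 145) in B6 thymocytes. The Lck-Cre pileup was the lowest at both. At chr12:114238095-114238985 the Lck-Cre library had 178 fragments (153 to 206), with at least 200 in floxed and at least 373 in B6 thymocytes.

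**Figure D4:**
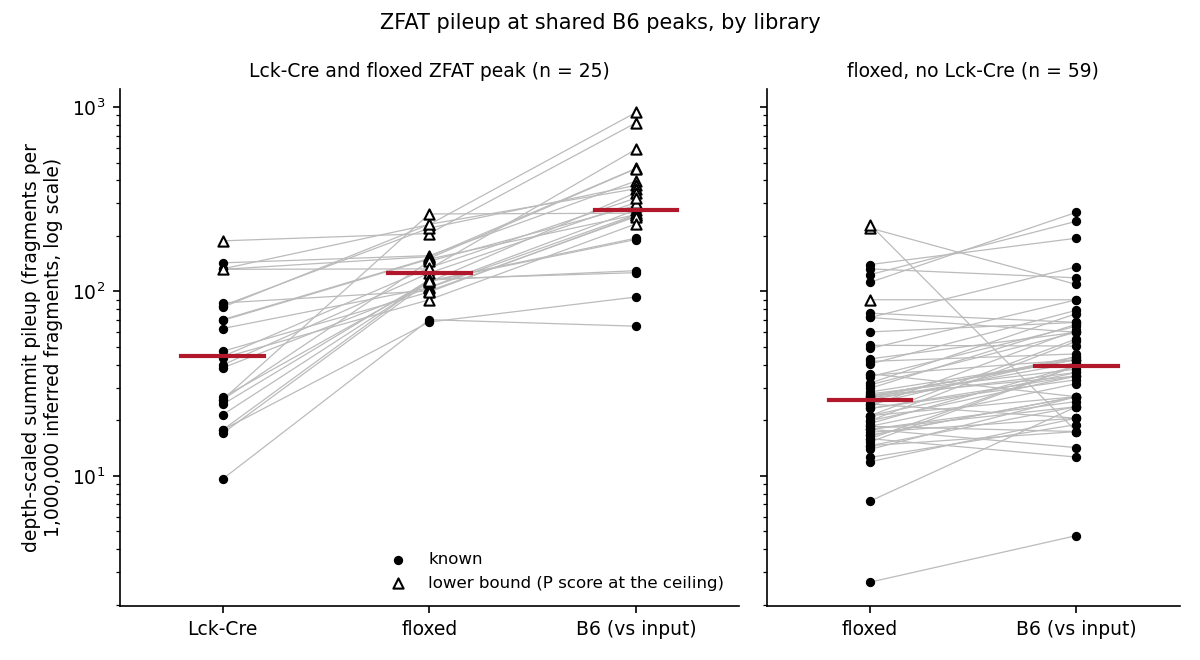
Depth-scaled ZFAT pileup at the summit (y, log scale) in Lck-Cre, floxed and B6 thymocytes at 25 regions with an Lck-Cre and a floxed peak (left), and in floxed and B6 thymocytes at 59 regions with a floxed and no Lck-Cre peak (right); lines join 1 region, open triangles are lower bounds at the P ceiling, and red bars are medians that count bounds as values. Median depth-scaled pileups on the left are 44.4 in Lck-Cre, at least 126 in floxed and at least 277 in B6 thymocytes. On the right, 2 regions take the floxed value of a peak with its summit at a neighbour.

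A floxed and no Lck-Cre ZFAT peak was found at 59 of the 290 doubly called regions (20.3%, 15.9% to 25.4%) and at 57 of 1710 input-only peaks (3.33%, 2.53% to 4.30%), with a background of 5.80% of input-called peaks. At B6 P scores of 50 or more it was found at 12 of 38 doubly called regions (31.6%, 17.5% to 48.7%) and at 3 of 8 input-only peaks (37.5%, 8.52% to 75.5%), with overlapping intervals. The 5 strongest were chr6:54987750-54988404, chr11:76220661-76220926, chr7:36340078-36340777, chr8:59029453-59029690 and chr1:133807106-133807734. Their floxed folds ranged from 25.0 to 107 and their B6 folds against input from 27.5 to 85.3. The chromosome 6 region had 186 floxed fragments (160 to 215) and 152 B6 fragments (129 to 178), and the nearest Lck-Cre ZFAT peak was 21551233 bp away. Over the 59 regions the median depth-scaled pileup was 25.9 in floxed and 39.5 in B6 thymocytes, which is below the Lck-Cre median of 44.4 at the 25 regions with a peak in both genotypes. The 59 include chr2:153475888-153476142 and chr7:134920032-134920189. Each takes the values of a floxed peak whose summit lies at a neighbour with an Lck-Cre peak. Within 1000 bp of an Lck-Cre ZFAT peak, without sharing a base, lay 3 doubly called regions.

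Some doubly called regions lay side by side. Within 20000 bp of each other there were 15 pairs of neighbours, and 6 of these were less than 500 bp apart, with summits 438 to 597 bp from each other. In the closest pair, chr7:134920032-134920189 lay 159 bp from the strongest region, at lower coordinates, and had a fold of 8.59. A single floxed ZFAT peak covered both. At chr19:56622315-56622608 and chr19:56622807-56623566 both regions were at the P ceiling, with folds of 167 and 158, and each had an Lck-Cre and a floxed ZFAT peak. At chr2:91550351-91550600 and chr2:91550873-91551125 the folds were 36.9 and 56.8, and only the second had an Lck-Cre ZFAT peak. All 12 regions of these 6 pairs had a floxed ZFAT peak, with a background of 7.30% of input-called peaks. In 2 of the pairs a single floxed peak covered both regions. Close pairs of input-only peaks were not counted, so whether close pairs, or their floxed peaks, are particular to these regions was not tested.

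Floxed H3K9ac/K27ac was present at 83 of the 290 doubly called regions (28.6%, 23.5% to 34.2%) and at 301 of 1710 input-only peaks (17.6%, 15.8% to 19.5%), with a background of 19.2%. The direction depended on the score. From 20 to 50 the share was 25 of 32 doubly called regions (78.1%, 60.0% to 90.7%) and 6 of 21 input-only peaks (28.6%, 11.3% to 52.2%), and from 50 upward it was 26 of 38 doubly called regions and 0 of 8 input-only peaks. From 10 to 20 it was 19 of 66 (28.8%, 18.3% to 41.3%) and 110 of 671 (16.4%, 13.7% to 19.4%), with overlapping intervals. Below 10 the doubly called share was the lower one, at 13 of 154 (8.44%, 4.57% to 14.0%) and 185 of 1010 (18.3%, 16.0% to 20.8%), and the intervals did not overlap. Among the 137 IgG-only peaks, 47 had floxed acetylation (34.3%, 26.4% to 42.9%) and 9 a floxed ZFAT peak (6.57%, 3.05% to 12.1%).

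Floxed acetylation was more frequent where floxed ZFAT was also called. Both peaks were present at 65 of the 290 regions, with a background of 4.50%. Of the 84 regions with a floxed ZFAT peak, 65 had floxed acetylation (77.4%, 67.0% to 85.8%), and the share was 49 of 64 at B6 P scores of 20 or more and 16 of 20 below. Of the 62 input-only peaks with a floxed ZFAT peak, 25 had it (40.3%, 28.1% to 53.6%). Of the 206 regions without a floxed ZFAT peak, 18 had floxed acetylation (8.74%, 5.26% to 13.5%), and 276 of 1648 such input-only peaks did (16.7%, 15.0% to 18.6%). With an Lck-Cre ZFAT peak as well, the share was 19 of 25 regions (76.0%, 54.9% to 90.6%), and without one it was 46 of 59 (78.0%, 65.3% to 87.7%).

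The acetylation peaks met lay inside the range of their list. Their median fold was 10.3, against 8.62 in the whole floxed list, and the median length was 398 bp, against 290 bp. The B6 ZFAT summit lay inside the acetylation peak at 80 of 83 regions. Its distance to the acetylation summit had a median of 43 bp and quartiles of 11.5 and 167.5 bp, wider than the distance between ZFAT summits. At regions with a floxed ZFAT peak the median distance was 56 bp (65 regions), and at those without it 21 bp (18 regions).

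Most strong regions without acetylation lay more than 10000 bp from any, but such a gap was not particular to them. Of the 70 regions with a P score of 20 or more, 19 had no floxed H3K9ac/K27ac peak. Of these, 3 lay within 1000 bp of one and 14 more than 10000 bp away, with a median gap of 19757 bp. Of all 207 doubly called regions without a floxed acetylation peak, 48 lay within 20000 bp of one, as did 303 of 1409 such input-only peaks. The strongest of the 19 by P score were chr19:56622315-56622608, chr17:25252548-25253037, chr2:90894136-90894455, chr2:98507234-98507459 and chr16:57606590-57607122. At chr17:25252548-25253037 the ZFAT fold was 14.7 in Lck-Cre, 355 in floxed and 160 in B6 thymocytes, and the nearest floxed acetylation peak was 17402 bp away. At chr2:90894136-90894455 the ZFAT fold was 6.40 in Lck-Cre, 158 in floxed and 77.1 in B6 thymocytes, with a gap of 15754 bp. The 355 on chromosome 17 was the highest ZFAT fold of the floxed list.

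Lck-Cre H3K9ac/K27ac was present at 24 of the 290 doubly called regions (8.28%, 5.37% to 12.1%) and at 75 of 1710 input-only peaks (4.39%, 3.47% to 5.47%), with a background of 4.95%. These intervals overlapped, as they did in every range of the B6 score. The shares were 7 of 154 regions and 45 of 1010 input-only peaks below 10, and 3 of 66 and 27 of 671 from 10 to 20. From 20 to 50 they were 9 of 32 and 3 of 21, and from 50 upward 5 of 38 and 0 of 8. Floxed and Lck-Cre acetylation peaks were both present at 20 of the 290 regions (6.90%, 4.26% to 10.5%), with a background of 3.65% of input-called peaks. Among the 83 regions with floxed acetylation, these 20 were 24.1% (15.4% to 34.7%), and among all input-called peaks with floxed acetylation it was 73 of 384. The share was 53 of 301 for input-only peaks with floxed acetylation (17.6%, 13.5% to 22.4%), an interval that overlaps that of the 83 regions. Of all 13016 floxed acetylation peaks, 12.3% had an Lck-Cre peak. The list of the Lck-Cre library holds 2225 peaks in all and its inferred depth is the lower one, and the part of depth in this difference was not tested. By ZFAT class the Lck-Cre peak was present at 3 of 19 acetylated regions with an Lck-Cre and a floxed ZFAT peak (15.8%, 3.38% to 39.6%), 15 of 46 with a floxed peak alone (32.6%, 19.5% to 48.0%) and 2 of 18 with no floxed ZFAT peak (11.1%, 1.38% to 34.7%), with overlapping intervals.

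At the 20 regions acetylated in both genotypes the fold was lower in Lck-Cre at 20 of 20, with medians of 4.47 in Lck-Cre and 11.1 in floxed thymocytes. The depth-scaled pileup was also lower at 20 of 20, with medians of 14.1 in Lck-Cre and 32.6 in floxed thymocytes. The Lck-Cre value was 0.495 of the floxed one at the median, with a range of 0.310 to 0.738. The whole lists also differed this way, with a median fold of 4.86 for all Lck-Cre and 8.62 for all floxed acetylation peaks. Pairs of acetylation peaks outside the doubly called regions were not compared, so whether the lower values are particular to these regions was not tested. The Lck-Cre and floxed acetylation peaks shared a base with each other at 19 of these 20 regions, and their summits lay within 100 bp of each other at 14 of the 19. At the remaining region, chr5:130007075-130007974, they were separate peaks. Over the 19 regions the depth-scaled pileup was lower in Lck-Cre at 19 of 19, with a median ratio to the floxed one of 0.508. The counts at chr11:99091362-99092238 were 41 (29.4 to 55.6) in Lck-Cre and 113 (93.1 to 136) in floxed thymocytes. At chr6:54987750-54988404, which had no Lck-Cre ZFAT peak, they were 28 (18.6 to 40.5) in Lck-Cre and 73 (57.2 to 91.8) in floxed thymocytes. These counts come from libraries of unequal depth. At the 63 regions acetylated in floxed thymocytes alone the floxed pileup had a median of 50 fragments, against 71.5 at the 20 regions with both.

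**Figure D5:**
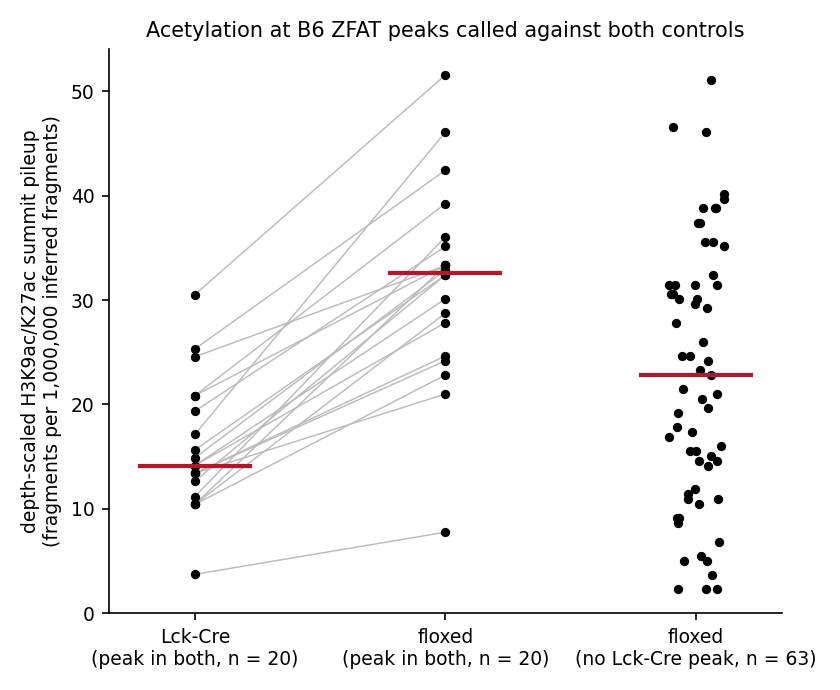
Depth-scaled H3K9ac/K27ac pileup at the summit (y) at the 20 regions with an Lck-Cre and a floxed acetylation peak (left and middle, lines join 1 region) and at the 63 regions with a floxed peak alone (right); red bars are medians. All 20 lines are lower at the Lck-Cre end, with medians of 14.1 in Lck-Cre and 32.6 in floxed thymocytes.

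H3K9me3 was rare at the doubly called regions. It was present at 7 of 290 (2.41%, 0.976% to 4.91%) and at 139 of 1710 input-only peaks (8.13%, 6.88% to 9.53%), with a background of 7.30%, and within 20000 bp at 15 of 290 regions and 261 of 1710 input-only peaks. By B6 score H3K9me3 was present at 4 of 154 regions and 72 of 1010 input-only peaks below 10, and at 2 of 66 and 56 of 671 from 10 to 20. From 20 to 50 the counts were 0 of 32 and 3 of 21, and from 50 upward 1 of 38 and 8 of 8. The intervals overlapped in every range below 50. None of the 18 regions at the B6 P ceiling had H3K9me3, and 18 are too few to set below a background of 7.30%. At 6 of the 7 the H3K9me3 pileup was small: 4 fragments at chr17:64472064-64472246, 8 at chr2:55289639-55289826, 8 at chrX:100958590-100958776 and 6 at chr4:35245040-35245215, with H3K9me3 folds of 4.20 to 4.89, and 6 and 9 at the other two. None of these 6 had an Lck-Cre or a floxed ZFAT peak.

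The seventh, chr2:98507234-98507459, stood apart from all other doubly called regions. Its B6 pileup was 2837 fragments, but its control background was 1523 scaled fragments of input and 1747 of IgG, so its folds were 1.86 and 1.62. For ZFAT the Lck-Cre pileup was 2768 fragments at a fold of 1.96. For H3K9ac/K27ac the Lck-Cre pileup was 3130 fragments at a fold of 1.54. The floxed lists had an H3K9me3 peak with a fold of 2.92, and the nearest floxed ZFAT and H3K9ac/K27ac peaks were 435886 and 427549 bp away. It was the only region with an Lck-Cre and no floxed ZFAT peak, and the shares above, without it, were 8.65% for Lck-Cre ZFAT and 2.08% for H3K9me3.

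Taken by combination of lists, 181 of the 290 regions (62.4%, 56.6% to 68.0%) met no peak of the other 5 lists, with a background of 70.4%, and 1227 of 1710 input-only peaks did not either (71.8%, 69.6% to 73.9%). These 181 had a median fold of 4.76 and a median pileup of 4, and 135 of them had a P score below 10. Floxed ZFAT with floxed acetylation was found at 31 regions (median fold 10.1), the same with an Lck-Cre ZFAT peak at 16 (median fold 158), and the same with an Lck-Cre acetylation peak at 15 (median fold 11.4). Floxed acetylation alone was found at 14 regions, floxed ZFAT alone at 13, and both ZFAT peaks without acetylation at 6. All 4 of these other lists met 3 regions, with a median fold of 280. Apart from the 181, these combinations were not counted over all input-called peaks. Whether any of them is more frequent at the doubly called regions was therefore not tested.

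Every chromosome but Y held doubly called regions. Their share of the input-called peaks ran from 4.71% on chromosome 18 (4 of 85, interval 1.30% to 11.6%) to 24.1% on chromosome 13 (14 of 58, 13.9% to 37.2%) among chromosomes other than Y. Both chromosomes are named for their values, so their intervals do not compare them. Chromosomes 2 and 11 held the most regions with a P score of 20 or more, with 9 and 10. Chromosomes 18 and X held none.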

How the data were processed

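The 7 deposited lists are MACS peaks in mm9, called by the authors per library; per the submitters' processing notes the tools were CASAVA 1.8.1, Trimmomatic 0.22, SAMtools 0.1.18 and, named for the B6 samples, MACS with no version. The sources used here name no aligner, and the headers of the Lck-Cre and floxed lists name no control. Per the file headers, the P score of the authors' lists is a −log10 p-value, and their fold is a ratio of ChIP over the local control level, with a fragment length of 150 bp and a p threshold of 1e-05. Coordinates were taken as 1-based and closed. Python 3.11.15 and pandas 2.3.3 counted overlaps of at least 1 bp, and scipy 1.17.1 gave exact intervals.

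The pileup is the whole number k that meets both deposited values if the fold equals (k + 1)/(background + 1) and the p equals a Poisson tail beyond k, to within 0.0001 of the P score; it was found for 1982 of 1982 input-called B6 peaks below the ceiling. The script was tested on simulated data: for the B6 list of 2000 peaks called against input, 1846 of 1846 pileups were recovered and 1 fractional one was accepted. At the ceiling it gives a lower bound. Depth is the lowest background spread over an effective genome of 1870000000 bases. Pileups above 300, the most that distinct starts allow, show that not all duplicate reads were removed.

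Regions were named by P score against input, ties by fold: the 10 strongest, the 5 strongest of each ZFAT or acetylation class, up to 5 with H3K9me3, and those at the edge of the definition. The neighbouring pairs, chr2:57034187-57034394 and the regions set beside others for their counts were picked after their values were seen. The regions and lists were chosen with earlier results of these data known. With 1 library per group there is no test between conditions.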

Additional observations from a re-analysis of the deposited data

Results flagged for a closer look

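The control libraries, whose reads were not analysed here, implied a local background of 20 or more scaled fragments at 1 doubly called region. The local background that the IgG-called list implies at chr2:98507234-98507459 was 1747 scaled fragments, above the 3 that a count of 0 allows. The input-called list implies 1523 there. Other regions also passed 3 at lower values, such as 7.72 in the IgG-called list at chr11:76212119-76212664. The part of the control background in the peaks called at chr2:98507234-98507459 was not tested.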

How the results depend on the processing

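Of 44 alternatives run, 30 left a value within its interval or within 1.5 times and 14 moved it; none could reverse a direction, since shares have none. Requiring a P score of 10 or more in both B6 lists left 122 regions, with floxed ZFAT at 62.3%, Lck-Cre ZFAT at 21.3%, floxed H3K9ac/K27ac at 53.3%, Lck-Cre H3K9ac/K27ac at 13.1% and a median fold of 9.79. Requiring a pileup of 10 or more, an alternative chosen after seeing the data, left 94, with 86.2%, 27.7%, 76.6% and 21.3% for the same lists and a median fold of 13.2. Requiring a P score of 10 or more in the other list gave 0.690% for H3K9me3 and 4.83% for Lck-Cre H3K9ac/K27ac. In each case fewer regions or peaks were counted by construction. Overlap of at least 50% of a region, a distance of 1000 bp, leaving out the region of high background, and taking the IgG-called rows moved no value beyond its interval. The distances to gene starts were not run, since no annotation of mm9 was used. No paired analysis was possible because each ChIP group has 1 library. Pileups of 3 to 5 fragments limit what can be said of the weak regions.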
